A study of Mus musculus with 24 samples.

Results

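The collagen genes Col1a1, Col1a2, Col3a1, Col5a1, Col5a2, Col6a1, Col6a2, Col6a3, Col4a1 and Col4a2 were followed in mouse liver. They encode chains of the fibrillar collagens I, III and V, the beaded-filament collagen VI and the basement membrane collagen IV. The 10 genes were taken by their symbols from a deposited expression table of 14293 protein-coding genes. All 10 had exactly 1 row each, and all 10 passed the filter of at least 0.5 FPKM in at least 8 samples that left 11562 genes for testing. FPKM is the number of sequenced fragments per kilobase of gene length and per mega (M) fragments of the library.

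Bulk RNA was sequenced from 24 liver samples of mice described as having NASH, the inflammatory and scarring form of fatty liver disease. The samples formed 3 groups of 8, given vehicle, vutiglabridin (a synthetic analog of the licorice flavonoid glabridin) or semaglutide (a long-acting analog of the gut hormone GLP-1). All 3 groups are described as NASH liver, and the comparison of expression by drug treatment is the stated purpose. The labels give no strain, disease model, diet, sex, age, dose or duration and do not say that replicates are separate animals, so the spread that the p-values rest on may be technical.

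Collagens are made of 3 chains wound into a triple helix. Type I is built mostly from the Col1a1 and Col1a2 chains in a fixed proportion, type III from Col3a1 alone, and both form the thick fibrils of scar tissue. Type V, from the Col5a1 and Col5a2 chains, starts and limits fibril assembly. Type VI, from Col6a1, Col6a2 and Col6a3, forms beaded filaments around cells, and type IV, from Col4a1 and Col4a2, forms the network of basement membranes. In injured liver the fibrillar chains come mainly from activated hepatic stellate cells and portal fibroblasts, while endothelial cells also make type IV.

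Positions are on GRCm38, from the GENCODE M21 annotation, in which all 10 are protein-coding genes. The values are per gene. The sources used here do not state which gene length the FPKM used. The merged length of all exons was taken, from steps of low values in genes with up to 1500 bp of exon, none of them among the 10, so the fragment numbers and orders of levels given here rest on that. Col1a1 lies at chr11:94936224-94953042 on the plus strand and Col1a2 at chr6:4504814-4541544 on the plus strand. Col3a1 (chr1:45311538-45349706, plus) and Col5a2 (chr1:45374321-45503282, minus) are neighbours whose 3′ ends are 24614 bp apart. Col5a1 lies at chr2:27886425-28039514, plus, and Col6a3 at chr1:90765923-90843971, minus. Col6a2 (chr10:76595762-76623630) and Col6a1 (chr10:76708792-76726168) are both on the minus strand, 85161 bp apart. Col4a1 (chr8:11198423-11312826, minus) and Col4a2 (chr8:11312805-11449287, plus) are transcribed away from each other, and their annotated first exons share 22 bp. Their longest transcripts have between 27 exons (Col6a2) and 66 exons (Col5a1).

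Stretches of reference sequence show how differently these genes begin. RefSeq start-site windows on GRCm38.p6 matched 8 of the 10 genes, the exceptions being Col1a1 and Col5a2. The 22 shared bases of the type IV pair are shown because these genes are the ones that start from a common place, and the 250 bases before the starts of Col3a1 and Col5a1 because these were fibrillar genes with a strong and a weak decrease. Capitals mark GGGCGG or its reverse complement CCGCCC, and TATAAA. All are written 5′ to 3′ on the plus strand.
Col4a1-Col4a2 shared bases, chr8:11312805-11312826: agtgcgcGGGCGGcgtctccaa
Col3a1, chr1:45311288-45311537: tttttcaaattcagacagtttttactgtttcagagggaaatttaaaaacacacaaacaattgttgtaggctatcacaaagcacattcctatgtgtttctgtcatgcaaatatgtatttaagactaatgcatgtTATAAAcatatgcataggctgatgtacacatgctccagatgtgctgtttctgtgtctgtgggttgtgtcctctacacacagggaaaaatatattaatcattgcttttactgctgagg
Col5a1, chr2:27886175-27886424: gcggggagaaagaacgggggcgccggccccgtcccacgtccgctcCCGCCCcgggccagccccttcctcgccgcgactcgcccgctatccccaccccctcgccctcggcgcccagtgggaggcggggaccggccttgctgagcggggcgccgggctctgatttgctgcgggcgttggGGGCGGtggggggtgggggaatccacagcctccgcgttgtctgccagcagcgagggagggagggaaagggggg
The Col3a1 window had a GC content of 35.2% and held TATAAA once, beginning 117 bases before the start site. The Col5a1 window had a GC content of 76.4% and held GGGCGG or its complement 2 times, the first 205 bases before the start site. Neither window held CCAAT on either strand. Among 32851 windows of 250 bases, 12.4% held TATAAA, 32.7% GGGCGG and 33.8% CCAAT on either strand (GGGCGG and CCAAT, with their complements, can share bases, and each was counted on its own). The Col3a1 and Col5a1 windows were picked by the size of the decrease. Among the 8 matched genes only Col3a1 had TATAAA, and windows of the others had GC contents from 56.0% to 76.4%. Col1a2 fell strongly too (log2 −1.31 with vutiglabridin). Its window had a GC content of 62.0% and held GGGCGG or its complement 2 times. Of that window, 127 bases lie in annotated Col1a2 exons. The Col6a1 and Col6a3 windows held none of the motifs. These matches describe the letters only, and a link to the decreases was not tested.

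Low FPKM values fell on a grid whose step is 1 fragment, which gave an approximate depth of 11.99 to 19.8 M (mega) fragments in vehicle libraries, 5.97 to 15.2 M in vutiglabridin libraries and 9.32 to 12.4 M in semaglutide libraries. At that depth Col1a1 rested on 97 to 1216 fragments per vutiglabridin library, and Col5a2, the lowest gene, on 56 to 403 fragments over all libraries. All 14 measured hepatocyte markers were at 1 FPKM or more in every sample, as the tissue label requires. All 114344 semaglutide cells of the table carry a trailing space that none of the others has, so a separate handling of that group cannot be told apart from the drug.

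Vutiglabridin was first set against vehicle. All 10 collagen genes were lower in vutiglabridin samples (limma adjusted p under 0.05), where 8.78% of all genes tested were called lower and 15.3% in either direction. The median log2 change of the 10 genes was −0.64, against 0.01 over all genes, and the mean levels were 31.4% to 67.6% of the vehicle means. Types I and III fell most: Col1a1 had the second, Col3a1 the third and Col1a2 the ninth lowest log2 change among the 11562 genes. These ranks are of log2(FPKM + 1), a scale that understates changes of low genes. In Col1a1, Col1a2, Col3a1 and Col4a1 all 8 vutiglabridin values lay below all 8 vehicle values, which held for 0.969% of genes tested. Rescaling each library to an equal total (TPM) raised the calls over all genes to 25.6%, with 23.6% lower, and shifted the all-gene median to −0.11, while the 10 collagens were all called with a median of −0.77. In bulk RNA, fewer cells of a type and less RNA per cell cannot be told apart.

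Semaglutide was then set against the same 8 vehicle samples, so its calls are not independent of those above. Of the 10 collagen genes, 9 were lower (limma adjusted p under 0.05), where 12.7% of genes tested were called lower and 27.0% in either direction. The exception was Col6a2. The median log2 change of the 10 genes was −0.45, against −0.01 over all genes, and the mean levels were 46.0% to 78.8% of the vehicle means. The 2 groups did not overlap in Col1a2 and Col3a1, which held for 1.74% of genes tested in this direction. With the trends with GC content and exon length removed from each library, 8 genes were called and the median was −0.48. TPM scaling left 9 called, with 29.3% of all genes called and 18.8% lower.

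**Figure D1:**
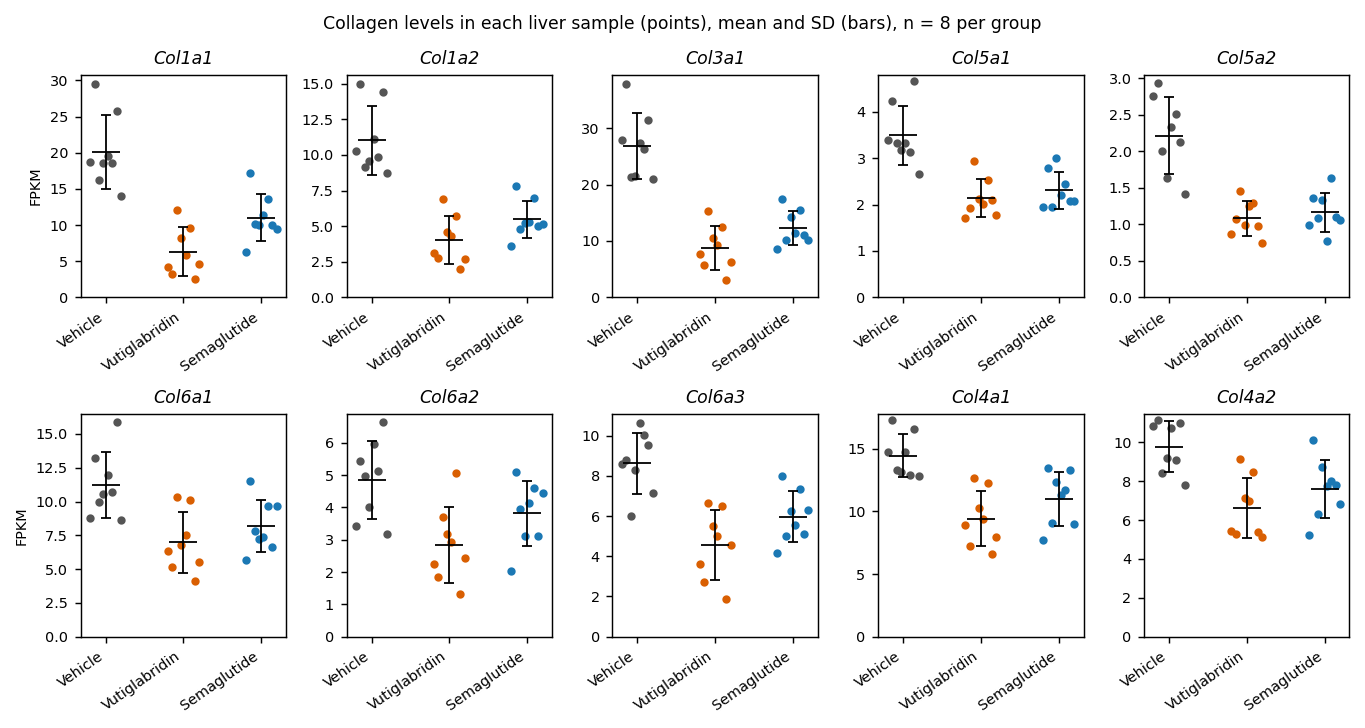
FPKM of each collagen gene (vertical axis, from 0) in every sample, with points for samples and bars for the mean and SD of 8 per group. Col1a1, Col1a2, Col3a1 and Col4a1 show no vutiglabridin point as high as the lowest vehicle point.

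Col1a1, the main chain of type I collagen, had a lowest, median and highest value of 14.03, 18.6 and 29.5 FPKM in vehicle samples. In vutiglabridin samples these were 2.47, 5.23 and 12.2 FPKM, and in semaglutide samples 6.26, 10.1 and 17.3 FPKM. All vutiglabridin samples and 7 of 8 semaglutide samples were below the lowest vehicle sample, and semaglutide replicate 2 lay within the vehicle range. The log2 change from vehicle was −1.63 ± 0.22 with vutiglabridin (SE; limma adjusted p = 4.13e-05) and −0.82 ± 0.22 with semaglutide (limma adjusted p = 0.00728). Spread was wide in the vutiglabridin group, where the highest sample was 4.92 times the lowest and the coefficient of variation was 53.8%, against 25.2% in vehicle and 29.5% in semaglutide samples.

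Col1a2, the second chain of type I, had values of 8.72, 10.1 and 15.0 FPKM (lowest, median, highest) in vehicle samples. They were 1.97, 3.73 and 6.92 FPKM in vutiglabridin samples and 3.59, 5.18 and 7.79 FPKM in semaglutide samples. Both drug groups lay wholly below the vehicle group. The log2 changes were −1.31 ± 0.17 (limma adjusted p = 2.42e-05) and −0.89 ± 0.17 (adjusted p = 2.76e-04).

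Col3a1, the sole chain of type III, was the most abundant of the 10 in vehicle samples, at 21.0, 26.8 and 37.8 FPKM (lowest, median, highest). Vutiglabridin samples held 3.00, 8.48 and 15.3 FPKM and semaglutide samples 8.52, 11.3 and 17.5 FPKM. Again neither drug group reached the vehicle range. The log2 changes were −1.59 ± 0.20 (limma adjusted p = 2.65e-05) and −1.07 ± 0.20 (adjusted p = 3.86e-04). Vutiglabridin replicate 7, the library with the fewest fragments, was the lowest for Col1a1, Col1a2 and Col3a1, and without it their vutiglabridin changes were −1.50, −1.21 and −1.43 with all 3 still called.

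The type V collagen chains had the lowest levels of the 10 genes and fell with each drug. Col5a1 had values of 2.66, 3.34 and 4.66 FPKM in vehicle samples, 1.72, 2.07 and 2.94 FPKM in vutiglabridin samples, and 1.95, 2.14 and 3.00 FPKM in semaglutide samples. Vutiglabridin replicate 3 and semaglutide replicates 2 and 4 reached the vehicle range, and every drug sample lay under the vehicle median. The log2 changes were −0.51 ± 0.09 (limma adjusted p = 3.97e-04) and −0.44 ± 0.09 (adjusted p = 7.00e-04). Col5a2 had 1.42, 2.23 and 2.94 FPKM in vehicle samples, 0.74, 1.03 and 1.46 FPKM in vutiglabridin samples, and 0.77, 1.10 and 1.64 FPKM in semaglutide samples. A single sample of each drug group overlapped vehicle, and the log2 changes were −0.62 ± 0.10 (limma adjusted p = 1.67e-04) and −0.56 ± 0.10 (adjusted p = 1.07e-04). With a pseudocount of 1 these changes of a low gene are understated: the Col5a2 means were 48.8% and 52.7% of the vehicle mean.

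Each type VI chain overlapped with vehicle in both drug groups. Col6a1 had values of 8.60, 10.6 and 15.9 FPKM in vehicle samples, 4.09, 6.57 and 10.3 FPKM in vutiglabridin samples, and 5.64, 7.62 and 11.5 FPKM in semaglutide samples. Vutiglabridin replicates 3 and 6 and semaglutide replicates 2, 6 and 8 lay within the vehicle range. The log2 change was −0.64 ± 0.15 with vutiglabridin (limma adjusted p = 0.00567) and −0.41 ± 0.15 with semaglutide (adjusted p = 0.0457). The semaglutide call of Col6a1 was lost in 18 of 30 alternative analyses, where the adjusted p ran from 0.0505 to 0.103, among them the removal of GC and length trends (adjusted p = 0.0824) and the omission of any of vehicle replicates 2 to 7 or semaglutide replicates 1, 3, 4, 5 and 7.

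Col6a2, the second chain of type VI, had 3.18, 5.05 and 6.63 FPKM in vehicle samples, 1.33, 2.69 and 5.06 FPKM in vutiglabridin samples, and 2.03, 4.05 and 5.10 FPKM in semaglutide samples. It fell with vutiglabridin, with a log2 change of −0.63 ± 0.17 (limma adjusted p = 0.0108). With semaglutide the difference was −0.28 ± 0.17 (95% interval −0.62 to 0.06; adjusted p = 0.220), and 5 of 8 samples lay in the vehicle range. Col6a3, the largest chain of type VI, had 5.98, 8.69 and 10.7 FPKM in vehicle samples, 1.86, 4.80 and 6.63 FPKM in vutiglabridin samples, and 4.16, 5.90 and 7.98 FPKM in semaglutide samples. Vutiglabridin samples except replicates 3 and 6 lay below every vehicle sample, while 4 semaglutide samples overlapped. The log2 changes of Col6a3 were −0.85 ± 0.16 (limma adjusted p = 0.00107) and −0.47 ± 0.16 (adjusted p = 0.0336), the latter lost in 7 of 30 alternative analyses, each of them the omission of 1 sample (vehicle replicates 2, 5, 6 and 7 and semaglutide replicates 1, 3 and 7; adjusted p 0.0521 to 0.0725).

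The basement membrane chains had the tightest vehicle groups, with coefficients of variation of 11.9% (Col4a1) and 13.4% (Col4a2). Col4a1 had 12.8, 14.02 and 17.3 FPKM in vehicle samples, 6.63, 9.17 and 12.6 FPKM in vutiglabridin samples, and 7.76, 11.5 and 13.5 FPKM in semaglutide samples. No vutiglabridin sample and only semaglutide replicates 2 and 7 reached the vehicle range. The log2 changes were −0.59 ± 0.12 (limma adjusted p = 0.00136) and −0.38 ± 0.12 (adjusted p = 0.0189). Col4a2 had 7.80, 9.96 and 11.2 FPKM in vehicle samples, 5.11, 6.21 and 9.12 FPKM in vutiglabridin samples, and 5.23, 7.79 and 10.1 FPKM in semaglutide samples. For Col4a2, 2 vutiglabridin and 4 semaglutide samples overlapped vehicle, and the log2 changes were −0.52 ± 0.12 (limma adjusted p = 0.00349) and −0.34 ± 0.12 (adjusted p = 0.0316). The semaglutide call of Col4a2 was lost in 8 of 30 alternative analyses, with an adjusted p of 0.0534 to 0.0750, among them the omission of vehicle replicate 1, 2, 5 or 7 or semaglutide replicate 1, 3 or 8.

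**Figure D2:**
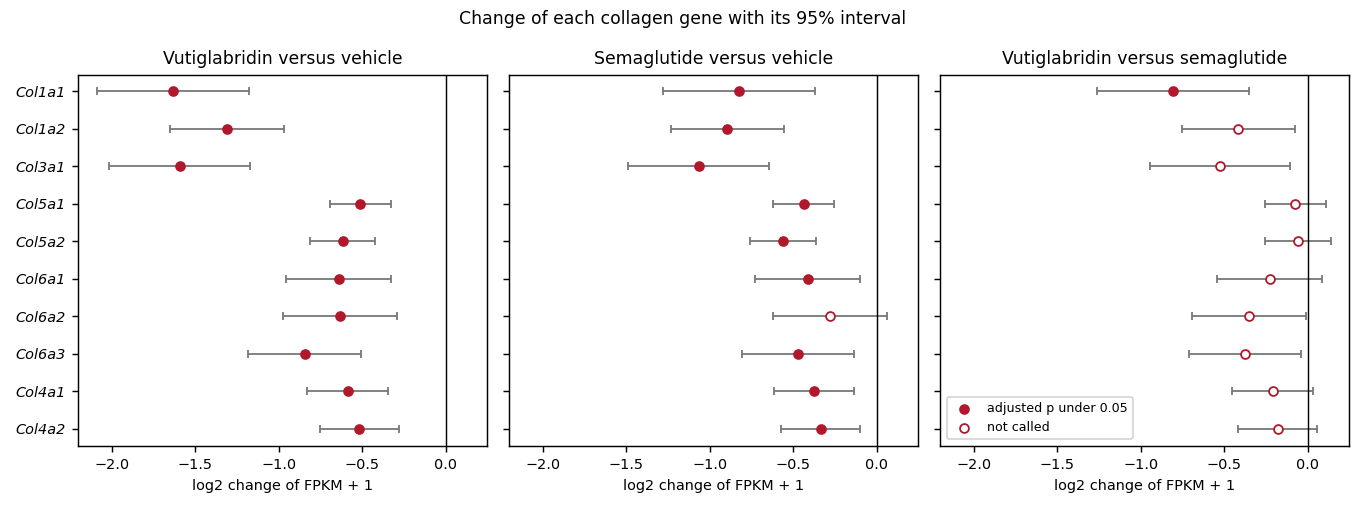
Difference of log2(FPKM + 1) between group means (horizontal axis, with 0 marked) for each collagen gene, with its 95% interval, in the 3 comparisons. Filled points passed an adjusted p of 0.05 in limma; the open point at −0.28 in the middle panel is Col6a2, and Col1a1 is the filled point in the right panel.

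The direct comparison of the drugs asks whether they differed in collagen level. Of the 10 genes, 1 passed the test. That share is near the 12.6% of all genes tested that were called lower and below the 24.4% called in either direction. Col1a1 was lower with vutiglabridin than with semaglutide by a log2 change of −0.81 ± 0.22 (limma adjusted p = 0.00910), and 5 of 8 vutiglabridin samples lay below every semaglutide sample. No gene had separate ranges, which 2.27% of genes tested had in this direction. Of the genes not called, 4 had 95% intervals, not adjusted for the number of genes, that left out 0. Col3a1 differed by −0.53 (95% interval −0.95 to −0.11; limma adjusted p = 0.0604), Col1a2 by −0.41 (−0.76 to −0.07; adjusted p = 0.0683), Col6a3 by −0.37 (−0.71 to −0.04; adjusted p = 0.0958) and Col6a2 by −0.35 (−0.69 to −0.01; adjusted p = 0.123). The intervals of the other 5 genes included 0. They ran from −0.26 to 0.11 for Col5a1 and from −0.25 to 0.14 for Col5a2, the narrowest of the 10, and from −0.54 to 0.09 for Col6a1. For the type IV chains they ran from −0.45 to 0.03 (Col4a1) and from −0.42 to 0.06 (Col4a2).

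The count of this comparison depended on single samples. It was 4 without vutiglabridin replicate 3, 5 without vutiglabridin replicate 6 and 4 without semaglutide replicate 1, and Col1a2 and Col3a1 were among the genes called in each of those 3 cases. Vutiglabridin replicate 3 had the highest value of its group in 9 of the 10 genes, and semaglutide replicate 1 the lowest of its group in 9. With TPM scaling 3 genes were called, Col1a1, Col1a2 and Col3a1, with all-gene calls of 24.7% and 19.6% lower. With Wilcoxon tests the count was 0, and Col1a1 had an adjusted p of 0.0677.

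The order of levels within a group changed with treatment. In FPKM the vehicle order was Col3a1, Col1a1, Col4a1, Col6a1, Col1a2, Col4a2, Col6a3, Col6a2, Col5a1 and Col5a2, and neighbouring genes overlapped in range throughout. In vutiglabridin samples Col4a1 came first (9.42 ± 2.20 FPKM; SD, n = 8), then Col3a1 (8.79 ± 3.94), Col6a1, Col4a2 and then Col1a1 (6.30 ± 3.39). Col4a1 exceeded Col3a1 in 5 of the 8 samples, so these neighbours are not separated. In semaglutide samples Col3a1 (12.3 ± 3.06 FPKM), Col1a1 (11.02 ± 3.25) and Col4a1 (11.00 ± 2.14) led. These orders depend on the length used. Merged exon length exceeds the longest transcript for Col1a2 (12426 against 5348 bp), Col3a1 (9816 against 5564 bp) and Col6a2 (8326 against 4912 bp). Per length of the longest transcript, Col3a1 led in every group (47.3 ± 10.2, 15.5 ± 6.95 and 21.8 ± 5.40 in vehicle, vutiglabridin and semaglutide), and Col1a2 was second in vehicle and semaglutide samples.

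The summed FPKM of the 10 genes was 113 ± 20.3 in vehicle, 52.7 ± 18.02 in vutiglabridin and 68.9 ± 14.5 in semaglutide samples (SD, n = 8). Its make-up by collagen type was then described. Type I made up 27.4 ± 1.70% of the sum in vehicle, 18.7 ± 2.98% in vutiglabridin and 23.7 ± 1.89% in semaglutide samples. Type III made up 23.7 ± 1.50%, 16.1 ± 2.69% and 17.8 ± 1.32%. Type IV went as a share from 21.7 ± 1.61% to 31.5 ± 4.21% and 27.2 ± 2.86%, while its own level fell. Type VI went from 22.0 ± 2.07% to 27.2 ± 1.96% and 26.1 ± 2.85%. Type V, at 5.08 ± 0.38%, 6.52 ± 1.81% and 5.13 ± 0.72%, overlapped between all groups. For types I, III, IV and VI, no vutiglabridin share lay within the range of vehicle shares. The same held for semaglutide shares of types III and IV, while those of types I and VI overlapped vehicle. These shares are descriptions, and the tests of unequal change are those of the ratios.

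**Figure D3:**
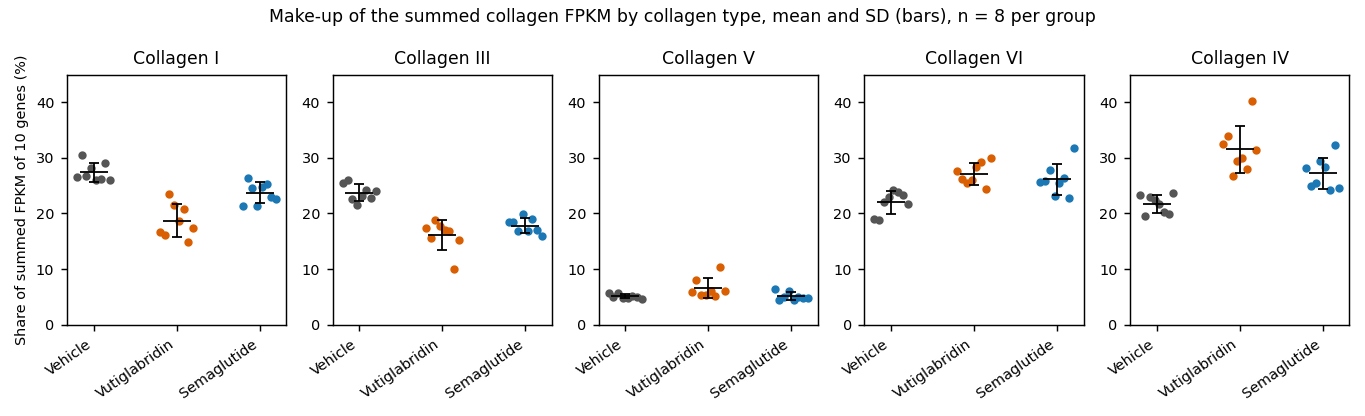
Share of each collagen type in the summed FPKM of the 10 genes (vertical axis, percent) in every sample, with bars for the mean and SD of 8 per group. Vutiglabridin samples lie below vehicle samples for types I and III and above them for types IV and VI. Semaglutide samples lie below vehicle samples for type III and above them for type IV.

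Unequal change was tested on 12 ratios of FPKM within each sample in the 3 comparisons, 36 exact permutation tests (2-sided, all 12870 splits of 8 and 8, Benjamini-Hochberg adjustment over the 36), of which 17 were called. A ratio within a sample does not depend on the library total. Its level does depend on the gene lengths used. The smallest p these tests can give is 1.55e-04, which is 9.32e-04 after adjustment for the ratios that reached it here.

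Col1a1 moved apart from Col4a1 and Col6a1, in 6 of 6 tests. Col1a2 was not tested against genes of types IV and VI. The ratio of Col1a1 to Col4a1 was 1.36 in vehicle, 0.607 in vutiglabridin and 0.982 in semaglutide samples (geometric means, n = 8). Against vehicle its log2 difference was −1.17 with vutiglabridin (95% interval −1.55 to −0.78; exact permutation adjusted p = 9.32e-04, lower in 8 of 8 samples, ranges apart) and −0.47 with semaglutide (−0.74 to −0.21; exact adjusted p = 0.00671). Between the drugs it was −0.69 (−1.11 to −0.28; exact adjusted p = 0.00814). The ratio of Col1a1 to Col6a1 fell likewise, by −1.09 with vutiglabridin and −0.43 with semaglutide (exact permutation adjusted p = 9.32e-04 for each), with no overlap with vehicle in either group.

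Ratios between chains of a single type, outside type I, and of type IV to type VI were also tested. In 15 exact permutation tests on Col4a1 to Col4a2, Col5a1 to Col5a2, Col6a1 to Col6a2, Col6a3 to Col6a1 and Col4a1 to Col6a1, 0 were called and 1 had an unadjusted p under 0.05. Col4a1 to Col4a2 was 1.47 in vehicle, 1.42 in vutiglabridin and 1.44 in semaglutide samples, with 95% intervals of the log2 difference from vehicle of −0.18 to 0.07 and −0.14 to 0.08. These are the pair whose first exons share the bases printed above. The intervals were wider for other pairs. Col5a1 to Col5a2 differed from vehicle by 0.28 with vutiglabridin (0.03 to 0.53; exact permutation adjusted p = 0.0607) and by 0.29 with semaglutide (−0.0039 to 0.58; exact adjusted p = 0.0865). The first was called in 5 of 20 alternative analyses (exact adjusted p 0.0194 to 0.0426), namely with the replicate block, with GC and length trends removed, and without vehicle replicate 4 or 7 or vutiglabridin replicate 5. The second was called in 3 of 20 (exact adjusted p 0.0317 to 0.0479), with GC and length trends removed and without vehicle replicate 7 or semaglutide replicate 6. Between the drugs, Col6a1 to Col6a2 was called without vutiglabridin replicate 6 or semaglutide replicate 1 (0.25 each; exact permutation adjusted p = 0.0404 and 0.0385). Col6a3 to Col6a1 differed by −0.28 with vutiglabridin (−0.58 to 0.02; exact adjusted p = 0.103).

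Within type I itself the chains did differ. The level of their ratio rests on the length used: per longest transcript, the vehicle means were 22.3 (Col1a1) and 25.6 (Col1a2). In FPKM, Col1a1 to Col1a2 was 1.81 in vehicle, 1.48 in vutiglabridin and 1.97 in semaglutide samples. It fell with vutiglabridin by −0.29 against vehicle (−0.49 to −0.09; exact permutation adjusted p = 0.0194) and by −0.41 against semaglutide (−0.62 to −0.21; exact adjusted p = 0.00210). Semaglutide differed from vehicle by 0.12 (0.01 to 0.24; exact adjusted p = 0.0666), and by 0.24 with GC and length trends removed (exact adjusted p = 6.99e-04), a setting in which that difference was called, as it was without semaglutide replicate 1 (0.15, exact adjusted p = 0.0210). Col3a1 to Col1a1 differed by 0.09 between vutiglabridin and vehicle (−0.12 to 0.29; exact adjusted p = 0.447). With semaglutide it was lower, by −0.25 (exact permutation adjusted p = 0.0322), a call lost in 10 of 20 alternative analyses (exact adjusted p 0.0503 to 0.0703), 9 of them the omission of vehicle replicate 1, 5, 6 or 8 or semaglutide replicate 2, 3, 5, 7 or 8 and the other the replicate block. Col5a1 to Col1a1 rose from 0.180 to 0.392 with vutiglabridin, a log2 difference of 1.12 (0.66 to 1.62, exact permutation adjusted p = 9.32e-04) with all 8 samples above the vehicle range. With semaglutide it was 0.222, a difference of 0.31 (0.03 to 0.59, exact permutation adjusted p = 0.0597). That difference was not called, but was in 6 of 20 alternative analyses, pseudocounts of 0.5 and 1 among them. Between the drugs Col5a1 to Col1a1 differed by 0.82 (exact permutation adjusted p = 0.0117) and Col3a1 to Col1a1 by 0.33 (exact adjusted p = 0.0196).

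**Figure D4:**
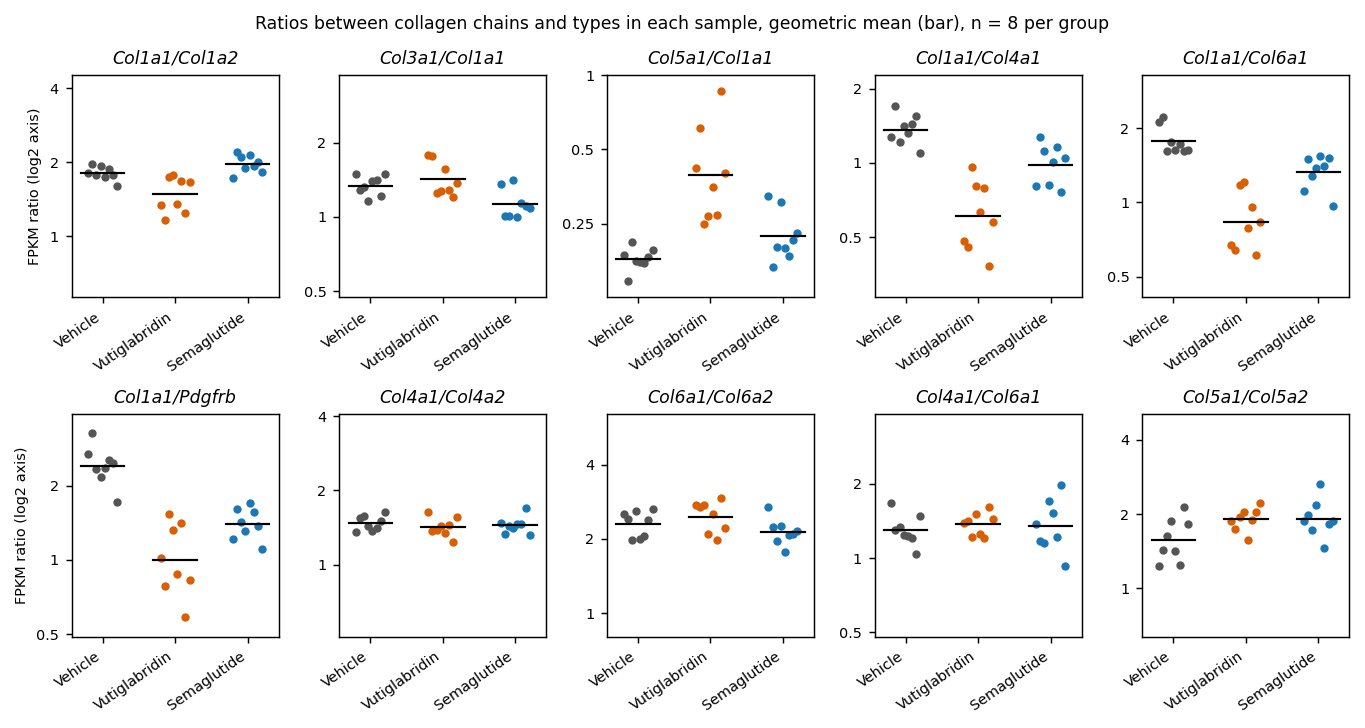
Ratio of FPKM of gene pairs in each sample (vertical axis, log2 scale), with bars for the geometric mean of 8 per group. Ratios with Col1a1 and genes of types IV, V and VI shift between groups, while Col4a1 to Col4a2 stays near 1.4 to 1.5 in the means.

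Samples of a group that were high in 1 of these genes tended to be high in the others. Over 6 gene pairs and 3 groups, 18 correlations of log2(FPKM + 1) were computed, each over 8 samples. All 18 Pearson correlations passed an exact permutation test after adjustment and 16 of the Spearman correlations did, with Pearson r from 0.753 to 0.978. The share of other gene pairs that would pass was not computed, so these counts are not particular to collagens. Col1a1 and Col1a2 had r of 0.970 in vehicle, 0.976 in vutiglabridin and 0.973 in semaglutide samples, with rho of 1.00, 0.929 and 0.786 (exact permutation adjusted p = 4.46e-04, 7.14e-04 and 0.00174 for r and 8.93e-04, 0.00402 and 0.0335 for rho), and r without the 2 farthest samples was 0.867, 0.941 and 0.896. Col1a1 and Col4a1 had r of 0.978 in vutiglabridin samples (rho 0.976; exact permutation adjusted p = 6.70e-04 and 0.00179), and 0.953 without the 2 farthest samples. In semaglutide samples the same pair had r of 0.753 (rho 0.643, exact permutation adjusted p = 0.0226 and 0.102), which dropped to 0.317 without those samples. The semaglutide correlation of Col1a1 and Col6a1 (r 0.824, rho 0.595, exact permutation adjusted p = 0.0129 and 0.132) likewise dropped to 0.328. In vehicle samples r went from 0.914 to 0.584 for Col1a1 and Col4a1 and from 0.843 to 0.657 for Col1a1 and Col6a1. Omitting the samples farthest in Col1a1 narrows its range, which by itself can lower r.

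**Figure D5:**
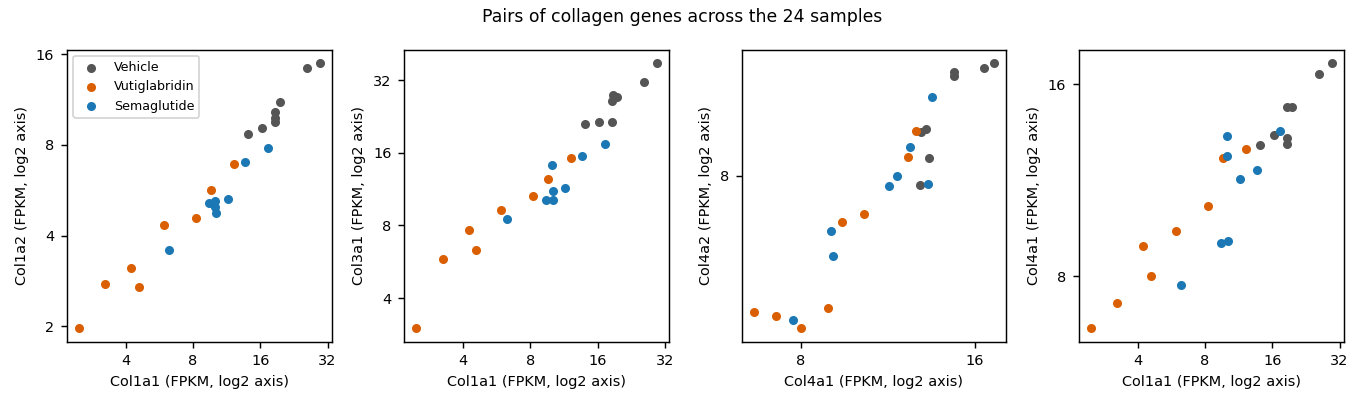
FPKM of gene pairs in the 24 samples (both axes on log2 scales), coloured by group. Col1a1 with Col1a2 and with Col3a1 forms a narrow band through all groups, and Col1a1 with Col4a1 is looser among semaglutide samples.

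Over all 45 pairs of the 10 genes, with group means removed, r over the 24 samples ran from 0.420 (Col5a2 and Col6a2) to 0.973 (Col1a1 and Col1a2). These samples share library depth and scaling, so the values are descriptions. The genes outside the 10 most like Col1a1 by this measure were Sparc, a collagen-binding matrix protein (r 0.923), Bgn, the proteoglycan biglycan (0.913), Col16a1 (0.891), Serpinh1, the collagen chaperone HSP47 (0.886), Pcolce, an enhancer of procollagen processing (0.885), and Loxl1, a cross-linking enzyme (0.879). For Col4a1 they were Sparc (0.917), Col16a1 (0.891), Rab31 (0.884), Vim (0.869), Anxa5 (0.868) and Sdcbp2 (0.866). For Col6a1 they were Bgn (0.887), Ccdc80 (0.872), Olfml3 (0.869), Dpysl2 (0.861), Pdgfrb (0.859) and Sparc (0.849). For Col5a1 the closest were Rcsd1 (0.804), Sh3tc1 (0.803), Gpr153 (0.794), Hr (0.764), Heyl (0.754) and Clec12a (0.753), lower values than for the other 3 anchors. Within single groups r could differ. With Col1a1, Loxl1 had 0.524 in vehicle, 0.945 in vutiglabridin and 0.923 in semaglutide samples, and Bgn 0.711, 0.982 and 0.843. With Col5a1, Rcsd1 had 0.878, 0.919 and 0.508 in the same order, and Clec12a 0.942, 0.695 and 0.468.

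Other collagens were counted from a list of 34, of which 23 were in the table and 8 were tested. Of the 8, vutiglabridin lowered 3 and raised 1, with a median log2 change of −0.33, and semaglutide lowered 5 and raised 1, with a median of −0.48. For this and the lists that follow, the shares over all genes tested were 8.78% lower and 15.3% in either direction with vutiglabridin, 12.7% and 27.0% with semaglutide, and 12.6% and 24.4% between the drugs. With TPM scaling the shares lower were 23.6%, 18.8% and 19.6%, and 5 of the 8 collagens were lower and 0 higher with vutiglabridin. Col15a1, a collagen of the basement membrane zone, fell from 5.77 ± 0.78 to 2.81 ± 0.88 FPKM with vutiglabridin (log2 −0.86, limma adjusted p = 1.91e-04) and to 3.86 ± 0.90 with semaglutide (−0.49). Col16a1 (−0.53 and −0.51) and Col14a1 (−0.62 and −0.76), both collagens that attach to fibrils, fell with each drug. Col18a1, whose fragment is endostatin, rose instead with vutiglabridin, from 144 ± 12.3 to 168 ± 13.1 FPKM (log2 0.23, limma adjusted p = 0.0276). That call was lost in 6 of 30 alternative analyses, TPM scaling among them (0.07, limma adjusted p = 0.450). Col18a1 also rose with semaglutide, to 169 ± 19.3 FPKM (0.23), a call lost in 0 of 30. Col5a3, a further type V chain, fell with semaglutide (−0.70, limma adjusted p = 0.00163), whereas its difference with vutiglabridin was −0.24 (adjusted p = 0.320). The drugs differed in Col5a3 by 0.46 (limma adjusted p = 0.0336), a call lost in 9 of 30 alternative analyses.

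Genes that fold, process and cross-link collagen numbered 24 tested of 31. Vutiglabridin lowered 11, raised 1 and left 12 uncalled (median log2 −0.26), and semaglutide lowered 13, raised 0 and left 11 uncalled (median −0.22). With TPM scaling the vutiglabridin counts were 18 lower and 0 higher. Loxl2, a lysyl oxidase that cross-links collagen, fell from 2.04 ± 0.29 FPKM to 1.05 ± 0.34 with vutiglabridin (log2 −0.58, limma adjusted p = 1.91e-04) and to 0.949 ± 0.23 with semaglutide (−0.64, adjusted p = 1.29e-05). Serpinh1 fell from 24.4 ± 2.35 to 13.9 ± 4.86 FPKM with vutiglabridin (−0.85) and to 15.6 ± 2.28 with semaglutide (−0.62). Adamts2, which removes the amino-terminal propeptide of procollagen, changed by −0.62 with vutiglabridin and −0.38 with semaglutide. Loxl1 fell by −0.85 with vutiglabridin, and between the drugs it differed by −0.47 (limma adjusted p = 0.0444; lost in 14 of 30 alternative analyses). In that comparison 1 gene of the list was lower and 3 were higher, a smaller share called than the 24.4% of all genes. Among the 3 were Ppib, a prolyl isomerase (0.28), and Bmp1, the procollagen C-proteinase (0.28). Neither was called with TPM scaling (0.18 and 0.19, limma adjusted p = 0.0700 and 0.0705).

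Proteins that bind or decorate fibrils were counted next. Of 20 tested of 23, 15 fell, 0 rose and 5 were not called with vutiglabridin (median log2 −0.56). With semaglutide 8 fell, 1 rose and 11 were not called (median −0.30). Sparc fell from 39.3 ± 6.36 to 21.6 ± 5.36 FPKM with vutiglabridin (−0.86, limma adjusted p = 1.41e-04) and to 25.4 ± 4.55 with semaglutide (−0.61, adjusted p = 0.00103). Fmod, a small proteoglycan of fibrils, changed by −0.94 and −0.80, and the glycoprotein Tnc by −0.56 and −0.56. Eln, elastin, fell by −0.85 with vutiglabridin. The drugs differed in 3 of the 20, near the 12.6% of all genes that were lower in that comparison. With TPM scaling 7 differed, where 19.6% of all genes were lower. The 3 were lower with vutiglabridin: Fbln2 (−0.56), Thbs2 (−0.50) and Fbn1 (−0.25, lost in 20 of 29 alternative analyses). The difference in counts between the drugs was not tested.

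Basement membrane partners of type IV collagen were also counted, with 3 of 12 tested lower and 9 not called with vutiglabridin (median −0.23), and 2 lower, 1 higher and 9 not called with semaglutide (median −0.01). The 3 of 12 called with semaglutide is near the 27.0% of all genes called. With TPM scaling 10 of the 12 were called lower with vutiglabridin, against 23.6% of all genes. Nid1, which links the laminin and type IV networks, fell from 9.80 ± 1.55 to 5.16 ± 1.35 FPKM with vutiglabridin (−0.82, limma adjusted p = 5.38e-05) and to 5.99 ± 1.14 with semaglutide (−0.63, adjusted p = 2.25e-04). Lamc1, the laminin γ1 chain, changed by −0.35 and −0.24. Lama4, a laminin of vessel walls, rose with semaglutide (0.22, limma adjusted p = 0.0350; lost in 12 of 29 alternative analyses) and was lower with vutiglabridin than with semaglutide (−0.41, adjusted p = 3.04e-04), as was Hspg2, perlecan (−0.46, adjusted p = 7.62e-04).

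Among 9 tested collagen receptors of 14, 3 fell with vutiglabridin: Lair1 (−0.48), Mrc2 (−0.59) and Ddr1 (−0.65), while 6 were not called (median −0.14). Semaglutide lowered Lair1 (−0.33), an inhibitory receptor of immune cells, raised Mrc1 (0.28, lost in 18 of 30 alternative analyses) and left 7 uncalled (median −0.03), where 27.0% of all genes were called. With GC and length trends removed 3 receptors were lower and 0 higher with semaglutide. With TPM scaling 5 receptors were called lower with vutiglabridin, and between the drugs 4 in place of 1. The drugs differed in Ddr1, a collagen-binding receptor kinase (−0.54, limma adjusted p = 0.00822). This 1 of 9 is near the 12.6% of all genes that were lower in that comparison. Of 11 tested genes of collagen breakdown and its inhibitors, from a list of 16, 6 fell, 1 rose and 4 were not called with vutiglabridin (median −0.53), and 4 fell, 0 rose and 7 were not called with semaglutide (median −0.18). Timp1, an inhibitor of matrix metalloproteinases, fell from 6.60 ± 1.90 to 2.17 ± 1.53 FPKM (−1.40, limma adjusted p = 4.48e-04) and to 2.11 ± 0.65 (−1.27, adjusted p = 4.01e-04). Mmp13, a collagenase, changed by −0.67 and −0.73. Mmp2 (−0.76) and Ctsk, cathepsin K (−0.83), fell with vutiglabridin.

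Profibrotic signal genes numbered 21 tested of 23. With vutiglabridin 7 fell, 0 rose and 14 were not called (median −0.24): Tgfb2 (−0.37), Spp1 (−0.92), Pdgfrb (−0.46) and Tgfb3 (−0.41) had the lowest p. With semaglutide 2 fell, among them Pdgfa (−0.29), Tgfbr1 rose (0.26) and 18 were not called (median −0.06), a smaller share called than the 27.0% of all genes. TPM scaling gave 13 lower with vutiglabridin, where 23.6% of all genes were lower, and removal of GC and length trends gave 0 calls with semaglutide. Tgfbr1, a receptor for transforming growth factor beta, was lower with vutiglabridin than with semaglutide (−0.51, limma adjusted p = 8.02e-05), and 5 of the 21 were lower in that comparison (10 with TPM scaling). The rise of Tgfbr1 with semaglutide was lost in 5 of 30 alternative analyses and the fall of Pdgfa in 2.

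Markers of the cells that make collagen were counted. Of 19 tested markers of stellate cells and myofibroblasts, 6 fell, 1 rose and 12 were not called with vutiglabridin (median −0.26), and 5 fell, 1 rose and 13 were not called with semaglutide (median −0.14), the latter near the 27.0% of all genes called. Between the drugs 2 of the 19 were lower and 3 higher with vutiglabridin than with semaglutide, near the 24.4% of all genes called. With GC and length trends removed 3 fell and 1 rose with semaglutide. With TPM scaling 11 fell and 0 rose with vutiglabridin. Their summed FPKM ran from 145 to 240 in vehicle, 117 to 186 in vutiglabridin and 121 to 156 in semaglutide samples. Vehicle replicate 7 held the 240, against at most 161 in the other vehicle samples, and without it the collagen counts were 10 lower with vutiglabridin and 6 with semaglutide. With vutiglabridin Tpm2 (−0.58), Vim (−0.57), Pdgfrb (−0.46) and Ngfr (−0.44) fell. With semaglutide Acta2, the smooth muscle actin of myofibroblasts, fell from 3.93 ± 1.40 to 1.53 ± 0.42 FPKM (−0.93, limma adjusted p = 3.90e-04), Tagln by −0.70 and Rgs5 by −0.52, while Hgf rose (0.58, adjusted p = 3.88e-06). Acta2 was at 2.55 ± 1.31 FPKM in vutiglabridin samples. Lrat, the retinol-esterifying enzyme of quiescent stellate cells, was at 6.04 ± 1.88, 5.30 ± 1.81 and 5.66 ± 1.92 FPKM in vehicle, vutiglabridin and semaglutide samples. The part of these markers in the collagen changes was not tested.

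Ratios of Col1a1 to 2 of these markers, Pdgfrb and Lrat, were tested, and ratios to the others, Acta2 among them, were not. Col1a1 to Pdgfrb, a receptor of stellate cells and other mural cells, was 2.41 in vehicle, 0.996 in vutiglabridin and 1.40 in semaglutide samples. The log2 difference from vehicle was −1.27 (−1.70 to −0.85) and −0.78 (−1.04 to −0.52), each with an exact permutation adjusted p of 9.32e-04 and no overlap with vehicle. Col1a1 to Lrat was 3.31, 1.11 and 1.95, with differences of −1.58 (−2.25 to −0.91; exact permutation adjusted p = 0.00210) and −0.76 (−1.38 to −0.14; exact adjusted p = 0.0322, lost in 7 of 20 alternative analyses, namely with GC and length trends removed or without vehicle replicate 1, 2, 5 or 6 or semaglutide replicate 4 or 8; exact adjusted p 0.0513 to 0.0696). Between the drugs Col1a1 to Pdgfrb differed by −0.49 (exact permutation adjusted p = 0.0395), a call lost in 12 of 20 alternative analyses, 11 of them the omission of vutiglabridin replicate 1, 2, 5, 7 or 8 or of any of semaglutide replicates 2 to 7 and the other the replicate block (exact adjusted p 0.0556 to 0.0701). Col1a1 to Lrat differed between the drugs by −0.82 (−1.61 to −0.02; exact permutation adjusted p = 0.0783), which was not called, but was in 3 of 20 alternative analyses (GC and length trends removed, or without vutiglabridin replicate 5 or semaglutide replicate 1).

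Markers of other cells were counted in the same fit. Portal fibroblast and mesothelial markers (6 tested of 10) fell in 4 genes and rose in 0 with vutiglabridin, and fell in 1 with semaglutide; their summed FPKM ran from 10.8 to 34.2 in vehicle, 4.21 to 9.89 in vutiglabridin and 7.14 to 13.3 in semaglutide samples. Of 17 endothelial markers, 0 fell and 1 rose with vutiglabridin (Clec4g, 0.29), and 2 fell and 4 rose with semaglutide, with summed FPKM of 91.8 to 109, 94.8 to 125 and 87.9 to 123. Of 16 macrophage markers 11 fell with vutiglabridin and 9 with semaglutide, with summed FPKM of 329 to 817, 205 to 448 and 217 to 392. Ccr2, a receptor of recruited monocytes, changed by −0.84 with vutiglabridin (limma adjusted p = 2.42e-05) and Lgals3 by −1.14 with semaglutide (adjusted p = 1.76e-04). Cholangiocyte markers (8 tested of 10) fell in 3 genes and 0 genes, and lymphocyte markers (7 tested of 14) in 3 genes and 0 genes. The cholangiocyte sums ran from 156 to 345 FPKM in vehicle, 70.7 to 196 in vutiglabridin and 94.1 to 293 in semaglutide samples, and the lymphocyte sums from 6.80 to 67.5, 4.16 to 8.74 and 7.14 to 19.5 FPKM. Vehicle replicate 3 held both the highest lymphocyte sum (67.5 FPKM, at most 13.5 in the others) and the highest portal and mesothelial sum (34.2 FPKM, at most 16.4 in the others), and without it the collagen counts were 10 with vutiglabridin and 8 with semaglutide. Of 14 hepatocyte markers 7 rose and 0 fell with each drug, and of 6 erythroid and adipocyte genes 0 and 2 fell. With TPM scaling the hepatocyte markers that rose with vutiglabridin became 2, the cholangiocyte markers that fell became 6, and Clec4g was not called (0.14, adjusted p = 0.130). With quantile normalization the vutiglabridin calls became 2 portal and 0 lymphocyte markers. No marker list held a gene at 0 in all samples, and the part of these cells in the collagen changes was not tested.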

How the data were processed

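Liver RNA of 24 samples was measured by paired-end mRNA sequencing, per the labels' protocols. The authors deposited 1 FPKM value per gene and sample. The submitters' processing notes name HISAT2, StringTie and DESeq2. Their versions and roles, the build and a filter, if any, were not given in the sources used here. Identifiers and symbols of all 14293 rows match GENCODE M21, and 0 columns of samples were left unused. FPKM divides by length and library total, so very abundant genes can shift all others. Steps of low FPKM values in genes with up to 1500 bp of exon gave the approximate depth. In 246 genes whose merged exons are at least 1.2 times the longest transcript, 100% of 382 low values lay within 0.2 of a step by merged exon length and 33.2% by the longest transcript.

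Values were taken as log2(FPKM + 1), so changes of low genes are understated. The 11562 genes at 0.5 FPKM or more in 8 or more samples entered 1 limma model of the 3 groups (limma 3.58.1, R 4.3.3, mean trend, 2-sided), with Benjamini-Hochberg adjustment over all genes within each comparison and a threshold of 0.05. Ratios used a pseudocount of 0.1 and exact permutation tests, with 95% intervals from inverting that test. The scripts were tested on simulated data. The collagen genes, the 15 gene lists and the tests were chosen with earlier results of these data known. All 10 collagens are named, with the 6 genes most like each of 4 of them and up to 4 genes with the lowest p per list and comparison, except 1 gene that is not reported here. Intervals and p-values cover the spread between samples. Alternatives were pseudocounts, filters, TPM, quantile and median scaling, removal of GC and length trends (splines with 5 degrees of freedom), robust spread, sample weights, only the compared groups, a replicate block, Wilcoxon tests and the omission of each sample.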

Additional observations from a re-analysis of the deposited data

Results flagged for a closer look

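In the semaglutide group, the ratio of Col4a1 to Col4a2 in replicate 7 was 1.69, which lay apart from the other 7 samples by more than Dixon's 95% limit for 8 values. It was the highest ratio of the group, whose lowest was 1.32 and median 1.44. No call of that ratio changed without this sample, and the uncalled difference between the drugs turned sign to 0.0071 on the log2 scale.

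Summed marker levels lay apart from the rest of their group by the same limit in 6 further cases. In vehicle replicate 7 the stellate and myofibroblast sum was 240 FPKM, against 145 to 161 in the other 7 samples. In vehicle replicate 3 the portal fibroblast and mesothelial sum was 34.2 FPKM (10.8 to 16.4 in the others), with the mesothelial gene Upk3b at 10.7 FPKM against at most 0.64. The lymphocyte sum of the same library was 67.5 FPKM (6.80 to 13.5 in the others), with Jchain, the joining chain of secreted antibodies, at 41.4 FPKM against at most 5.04. In semaglutide replicate 1 the portal and mesothelial sum was 7.14 FPKM (11.3 to 13.3 in the others) and the cholangiocyte sum 94.1 FPKM (185 to 293), and in semaglutide replicate 8 the endothelial sum was 87.9 FPKM (105 to 123). Chance marks about 1 in 20 groups in this way, and 7 of 87 groups tested were marked.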

How the results depend on the processing

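The vutiglabridin count of 10 lower collagens held in all 14 alternative settings and in all 16 omissions of a sample. The semaglutide count of 9 ran from 7 to 9 over the settings and from 6 to 9 over the omissions, with Col6a1, Col6a3 and Col4a2 the calls that were lost. For vutiglabridin against semaglutide the count of 1 became 3 with TPM scaling and 0 with Wilcoxon tests, and ran from 1 to 5 over the omissions. The ratio calls, 17 of 36, ran from 17 to 20 over the settings and from 15 to 20 over the omissions, and the 18 correlations kept their calls with TPM scaling and with a pseudocount of 0.1. Signs turned only in differences that were not called, and the cause was not tested. Col5a2 between the drugs was 0.011 with quantile normalization. Col6a1 to Col6a2, vutiglabridin against vehicle, was −0.0078 with a pseudocount of 1. With GC and length trends removed, Col4a1 to Col4a2 between the drugs was 0.0013 and Col4a1 to Col6a1, semaglutide against vehicle, −0.034. Over the omissions of a sample, Col4a1 to Col6a1 ran from −0.032 to 0.12 for semaglutide against vehicle. Between the drugs it ran from −0.047 to 0.11, Col4a1 to Col4a2 from −0.054 to 0.0071 and Col5a1 to Col5a2 from −0.062 to 0.060. Depth limits Col5a2 most, at 56 fragments in the shallowest library.

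The replicate numbers were not taken as pairs, since not every correlation was over 0.1: correlations of same-numbered deviations from the group means ran from −0.12 to 0.28, −0.25 to 0.25 and −0.20 to 0.29 in the 3 comparisons, 6, 2 and 3 of the 8 were over 0.1, and 2, 1 and 1 of the 8 samples correlated best with their own number. With the replicate block the counts were 10, 8 and 1, and 10, 7 and 1 with GC and length trends also removed; a sign-flip test over same numbers called 17 ratios, without Col3a1 to Col1a1 with semaglutide (adjusted p = 0.0703) and Col1a1 to Pdgfrb between the drugs (0.0592), and with Col5a1 to Col1a1 with semaglutide and Col5a1 to Col5a2 with vutiglabridin (0.0375 each) in addition.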
